A study of Homo sapiens with 9 samples.

Results

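The MYC locus was examined here as an interval of 3.6 Mb on human chromosome 8, hg19 chr8:126400001-130000000, that holds 5 genes and the gene-poor stretch upstream of MYC. The genes are TRIB1 near 126.44 Mb, FAM84B near 127.57 Mb, POU5F1B near 128.43 Mb, MYC at 128.748 to 128.753 Mb and PVT1 at 128.807 to 129.113 Mb. The interval covers 72 windows of 50 kb, all of which passed the filter on low counts, of 56728 such windows kept across the 22 autosomes and X. The interval and the stretch of 1.3 Mb from 126.85 to 128.15 Mb within it were chosen on measured values, namely the library shares of these same tables and their difference between the cell lines, so that difference is given below as a description, with no test.

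The study profiled replication timing by sequencing newly made DNA from 2 human cell lines. The non-tumour line, RPE1, derives from retinal pigment epithelium and was immortalised by expressing telomerase. The tumour line, HCT116, derives from a colorectal carcinoma. Growing cells took up the thymidine analogue EdU, were sorted into an early, a mid and a late fraction of S phase, and the labelled DNA was pulled down and sequenced. The 9 libraries form 2 sets of RPE1 and a single set of HCT116, each of 3 libraries. Nothing in the labels says that the RPE1 sets came from separate cultures. The spread between the RPE1 sets, given as an SD with n = 2, was the replicate error used here, and it may be technical. HCT116 had no replicate, so no difference between the lines carries a p-value.

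Large domains of the genome are copied at characteristic times in S phase. Gene-rich, active chromatin tends to be copied early and gene-poor, silent chromatin late, and many domains change their time between cell types. MYC encodes a basic helix-loop-helix transcription factor that drives growth and proliferation, and the gene-poor interval upstream of it is known for distant enhancers of MYC in epithelial cells, those of the colon included. PVT1 is a long noncoding RNA gene that is often gained together with MYC in tumours. TRIB1 encodes a pseudokinase that acts as a scaffold for protein degradation. FAM84B, now named LRATD2, encodes a protein with an LRAT-like domain. POU5F1B is a retrogene derived from POU5F1, which encodes the pluripotency factor OCT4. In the RefSeq gene order, used for neighbours alone because its assembly is not that of the files, 0 protein-coding genes lay between any neighbouring pair of the 5 genes. It placed 7 long noncoding RNA genes between TRIB1 and FAM84B, and 10 between FAM84B and POU5F1B, PCAT1, CCAT1 and CASC8 among them. PVT1 itself held 4 microRNA genes.

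The deposited tables give 3 columns of counts per set without a name for the fraction, so the libraries are called A, B and C by column position, and none is assigned to early, mid or late S phase. On the gene-dense chromosome 22, library A held 50.0% and 47.5% of the scaled reads in the 2 RPE1 sets, against 45.6% in HCT116. On the gene-poor chromosome 18 it held 26.0%, 26.7% and 27.6%. A share below is a library's percent of the reads of a window after the 3 libraries of a set were scaled to equal totals. The leading axis combines the 3 libraries into 1 value per window, in units of the SD over autosomal windows, with high values at the library C end. It is the first principal component of the log2 scaled counts, and it held 95.1%, 82.1% and 82.9% of their variance in the 3 sets. Library B had the smallest weight in it in each set (-0.29, 0.10 and -0.21), so shares are given beside it. The weights of library A were -0.52, -0.75 and -0.58 and those of library C were 0.81, 0.65 and 0.79. The axis was thus a somewhat different mix of the libraries in each set.

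The sets held 35891538, 55421713 and 27519669 reads, and single libraries held between 6170299 and 22930078. Within the locus HCT116 had 42745 reads and the RPE1 sets had 38517 and 63876, with medians of 11, 10 and 16 reads per 1 kb bin. Intervals in brackets are 95% Wilson intervals of a share, and they cover counting error only. Summed reads of chromosome 8 stood at 1.24 times the autosomal median in HCT116, and at 0.99 and 0.98 times it in RPE1.

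In RPE1 library A was high at TRIB1 and across MYC and PVT1, and library C was high in the interval between them. Library A led from the TRIB1 end to 126.70 Mb in set 1 and to 126.75 Mb in set 2. Library C then led 23 consecutive windows in set 1, from 126.90 to 128.05 Mb, and 19 in set 2, from 126.95 to 127.90 Mb. A broad shoulder led by library B followed up to 128.60 Mb, where library A took over across MYC and PVT1, up to 129.25 Mb in set 1 and 129.30 Mb in set 2. Beyond that point library B led to the end of the locus in both sets.

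In HCT116 the C-rich interior was not present. Library A led 16 windows from 126.40 to 127.20 Mb, library B led 10 windows from 127.20 to 127.70 Mb, and library A led the next 31 windows up to 129.25 Mb. Library C led 1 window of the locus, at 129.90 to 129.95 Mb, and its share between 126.85 and 128.15 Mb stayed between 12.2% and 21.5%. The plot of shares along the locus sets these patterns side by side.

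**Figure D1:**
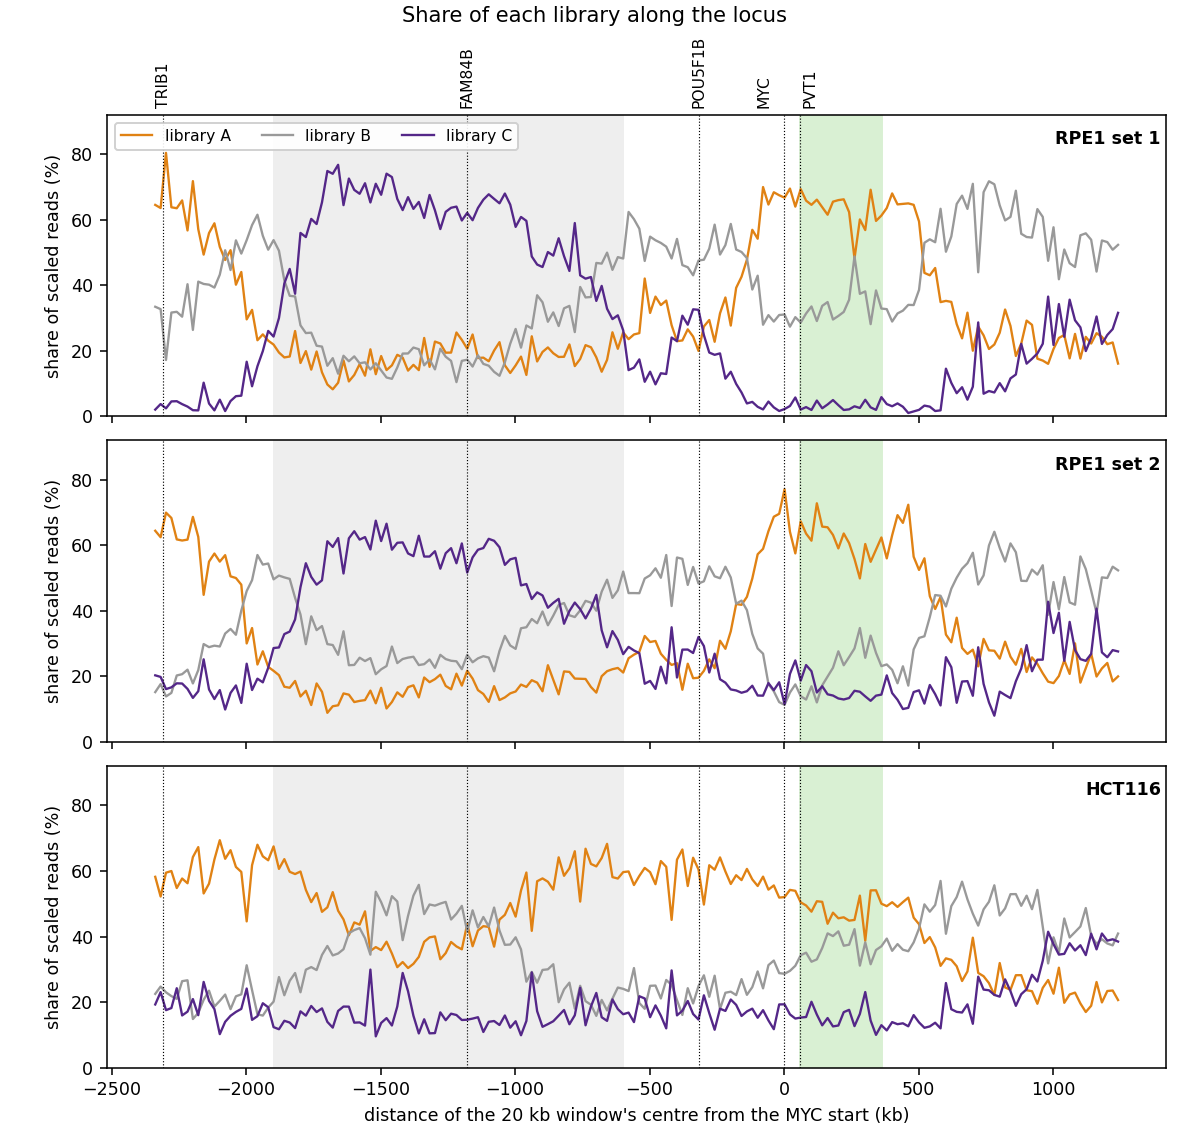
Share of scaled reads in libraries A, B and C (percent) for each 20 kb window of the locus, against the distance of the window from the MYC start in kb, with 1 panel per set. Grey shading is the stretch from 126.85 to 128.15 Mb, green shading is PVT1 and dotted lines are gene positions. In both RPE1 panels the library C line rises above the others across the grey stretch, while in HCT116 the library A line dips in its middle and the library B line rises there.

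Over the 26 windows of the stretch, library C held 58.6% [57.8 to 59.4] of the scaled reads in RPE1 set 1. It held 50.3% [49.6 to 50.99] in RPE1 set 2, against 15.9% [15.2 to 16.6] in HCT116. Library A held 18.0%, 16.9% and 47.4% in the same order. Library B held 23.4%, 32.8% and 36.7%, so that HCT116 lay 13.3 percentage points above RPE1 set 1 and 3.92 above RPE1 set 2, while the RPE1 sets were 9.42 apart. The increase in library A of 29.9 percentage points over the RPE1 mean was far larger than the SD of 0.80 between the RPE1 sets (n = 2), while the increase in library B of 8.63 points compares with an SD of 6.66. The mean leading axis over the stretch was 0.98 and 0.95 in RPE1, and HCT116 stood at -0.97, a difference of -1.93.

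A window was called where HCT116 lay at least 1 SD unit below, or above, both RPE1 sets on the leading axis. Across all kept windows 7.77% were called below and 3.26% above. In the locus 29 of 72 windows were called below and 0 above. All 26 windows of the stretch were among the 29, as the rule that chose it fixes, and the other 3 were neighbours from 128.35 to 128.50 Mb, the middle one being the window that holds POU5F1B. No window was called on the TRIB1 side (9 windows), from MYC to PVT1 (9 windows) or beyond PVT1 (17 windows). From MYC to PVT1 the RPE1 axis already lay between -1.68 and -1.16, and HCT116 went no lower than -1.34 in the locus. A call below thus had little room there.

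At the left edge of the stretch, the outermost window inside it had axis values of 0.46 and 0.41 in RPE1 and -1.32 in HCT116, and its neighbour outside had 0.14, 0.02 and -0.88. At the right edge, the outermost window inside had 0.33, 0.33 and -0.84, and its neighbour outside had -0.12, 0.14 and -1.05. The values on both sides of each edge thus lay close together, and the limits of the stretch follow from the threshold of 1 SD unit.

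**Figure D2:**
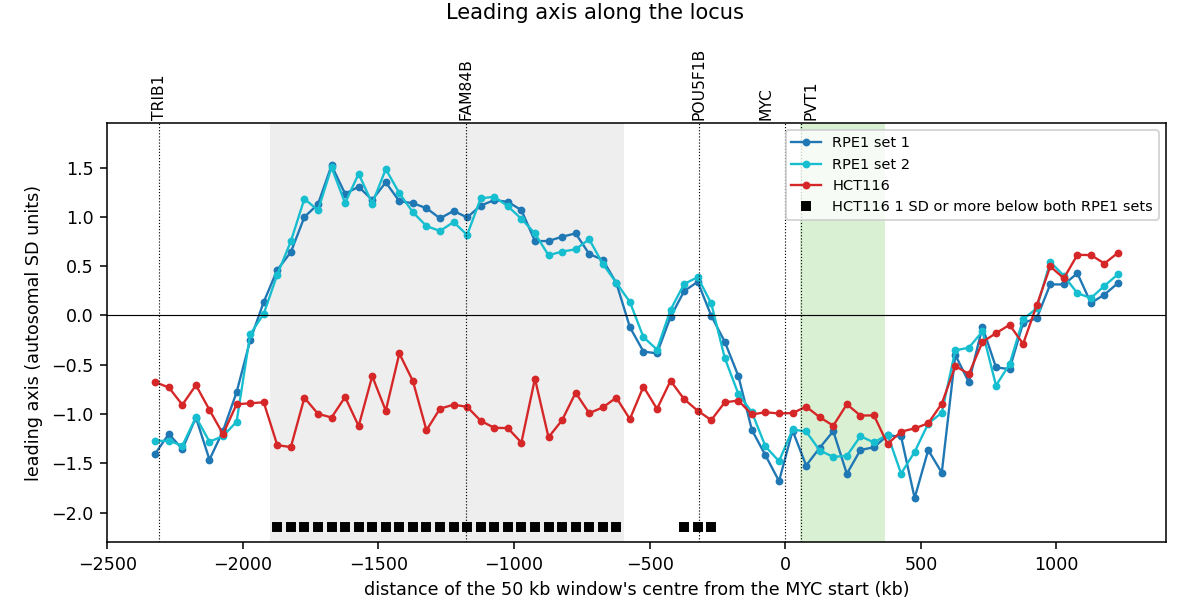
Leading axis (autosomal SD units, library C end positive) of each 50 kb window of the locus in the 3 sets, against the distance of the window from the MYC start in kb. Black squares mark the 29 windows where HCT116 lies at least 1 SD unit below both RPE1 sets. The RPE1 lines rise above 0 across the grey stretch and again at POU5F1B, and the HCT116 line stays between -1.34 and -0.39 across the stretch.

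The RPE1 domain had edges of unequal steepness. On 20 kb windows smoothed over 5, the axis crossed 0 at 126.816 and 126.824 Mb on the TRIB1 side, 376 and 384 kb from TRIB1. On the MYC side it crossed 0 at 128.172 and 128.190 Mb, which left 576 and 558 kb to the MYC start. The axis went from -0.5 to 0.5 within 142 and 121 kb on the TRIB1 side, but took 479 and 453 kb from 0.5 to -0.5 on the MYC side. The longer passage held a dip followed by a small rise around POU5F1B, between upward crossings at 128.335 and 128.320 Mb and downward crossings at 128.480 and 128.483 Mb. The RPE1 sets placed the edges of the domain 8 and 18 kb apart, less than 1 window of 20 kb.

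HCT116 crossed 0 at neither edge. Within the locus it crossed 0 at a single position, 129.662 Mb, which lies 549 kb beyond the PVT1 end. RPE1 crossed at 129.663 and 129.649 Mb there, so the position of this crossing differed no more between the lines than between the RPE1 sets. Beyond PVT1, over 17 windows, library B led 15 and 14 windows in RPE1, against 14 in HCT116. The mean axis there was -0.39, -0.30 and -0.17, and library C held 15.7%, 22.1% and 26.0%. HCT116 thus lay above both RPE1 sets in the axis and in library C, but by little. The axis difference from the RPE1 mean was 0.17, against a median of 0.094 over all kept windows, and 57.2% of windows had a lower one. The RPE1 sets were 0.098 apart in the axis and 6.44 percentage points apart in library C.

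The genes took different places in this pattern. TRIB1, at the left end, lay in a window where library A held 67.3% [63.4 to 70.9] and 65.6% [62.9 to 68.2] in RPE1, against 56.2% [52.6 to 59.7] in HCT116. All 3 sets were led by library A there, and the HCT116 share was below both RPE1 shares. In rank among autosomal windows it stood above 89.7% of them in HCT116, against 94.9% and 93.0% in RPE1. High library A shares were lower in HCT116 over the autosomes as a whole. The 95th percentile over autosomal windows was 59.1% in HCT116, against 67.3% and 67.1% in RPE1. The axis at TRIB1 was -1.40 and -1.27 in RPE1 but -0.68 in HCT116, which makes a difference of 0.66 that was not called. It came to 0.46 with a log2 ratio of library C to A as the axis, and to 1.14 with ranks.

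FAM84B lay inside the stretch. Library C held 60.6% [57.1 to 63.9] and 54.9% [51.6 to 58.0] of its window in RPE1 and 15.5% [12.8 to 18.6] in HCT116. The lead went to library B in HCT116, with 44.4% [41.0 to 47.7] against 16.2% and 25.2% in RPE1, while library A rose from 23.3% and 19.9% to 40.1% [36.8 to 43.6]. On 50 kb windows FAM84B was the one member of the 5 led by library B in HCT116, although its intervals for libraries A and B overlapped. On its single 20 kb window library A led in HCT116, with 43.8% against 41.6% for library B. The FAM84B axis went from 0.99 and 0.82 in RPE1 to -0.93, a difference of -1.83. Of kept windows 0.717% went below it, a rarity that follows in part from choosing the stretch on this difference.

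POU5F1B lay outside the stretch, on the shoulder. Library B led its window in RPE1, with 44.6% [39.2 to 50.1] and 50.8% [47.3 to 54.2], and library A led in HCT116, with 58.9% [54.5 to 63.1] against 24.3% and 19.98% in RPE1. Library C held 31.1%, 29.3% and 16.9%. The axis went from 0.34 and 0.39 to -0.97, a difference of -1.33, and came to -1.54 on the 20 kb window. On the whole side from 128.15 to 128.70 Mb, library B led 9 of 11 windows in each RPE1 set and 0 of 11 in HCT116, where library A led all 11.

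MYC was led by library A in every set. Its windows, which hold the 5 kb gene and its surroundings, had a library A share of 67.2% [64.1 to 70.2] and 66.8% [64.6 to 68.9] in RPE1 and of 53.6% [51.01 to 56.1] in HCT116. The HCT116 share was 13.4 percentage points below the RPE1 mean, with an SD of 0.28 between the RPE1 sets (n = 2). In rank among autosomal windows it stood above 84.2% of them in HCT116, against 94.9% and 94.7% in RPE1. The axis was -1.43, -1.32 and -0.99, a difference of 0.38 that was not called and that was larger, 0.93, on the single 20 kb window of the gene. That window held 229, 343 and 242 reads.

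PVT1 was also led by library A in all 7 of its windows in every set. Its library A share was 63.1% [61.3 to 64.8], 61.5% [60.3 to 62.7] and 48.4% [46.9 to 49.9], and its library B share was 33.7%, 22.4% and 36.4%. In rank the library A share stood above 75.1% of autosomal windows in HCT116, against 89.4% and 87.3% in RPE1. Along the gene the RPE1 library A share was 65.4% and 65.0% in the 8 windows of 20 kb nearest its start and 59.8% and 58.5% in the 8 nearest its end. In HCT116 these values were 48.5% and 48.1%.

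At the 3 genes led by library A in both lines, libraries B and C were measured differently by the RPE1 sets. Library C held 2.99% and 18.8% at TRIB1, 3.19% and 18.7% at MYC, and 3.19% and 16.0% at PVT1. HCT116 had 21.0%, 16.3% and 15.2% at these genes, so no difference in library C between the lines can be read there. The library A shares of the RPE1 sets lay within 1.63 percentage points of each other at each of these 3 genes.

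Ordered by library A share, the RPE1 means were 67.0% ± 0.28 at MYC, 66.4% ± 1.15 at TRIB1, 62.3% ± 1.11 at PVT1, 22.2% ± 3.08 at POU5F1B and 21.6% ± 2.37 at FAM84B (SD, n = 2). MYC and TRIB1 differed by 0.57 points and POU5F1B and FAM84B by 0.56 points, less than the spread between the RPE1 sets. In HCT116 the order was POU5F1B, TRIB1, MYC, PVT1 and FAM84B. There the counting intervals of POU5F1B and TRIB1 overlapped, as did those of TRIB1 and MYC, while those of MYC and PVT1 and of PVT1 and FAM84B did not. POU5F1B thus stood next to FAM84B in RPE1 and at the other end of the order in HCT116.

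**Figure D3:**
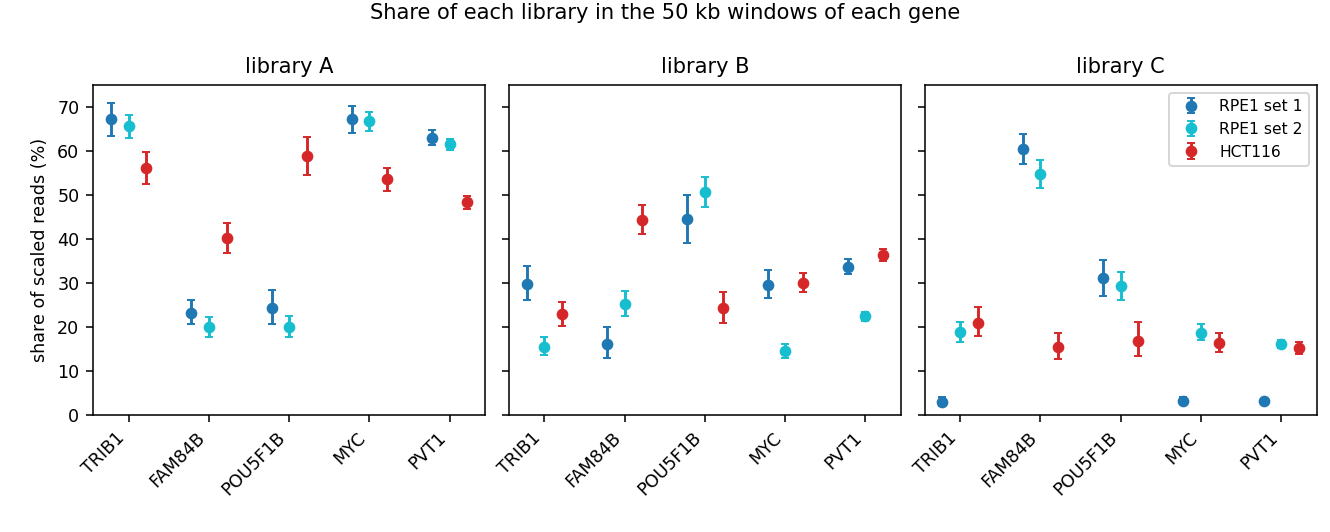
Share of scaled reads (percent) in libraries A, B and C over the 50 kb windows of each gene, with 1 point per set and 95% Wilson intervals for counting error as bars. HCT116 lies below both RPE1 sets in library A at TRIB1, MYC and PVT1 and above both at FAM84B and POU5F1B, where it lies below both in library C. High library A shares are lower in HCT116 than in RPE1 over autosomal windows as a whole.

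The stretch was not uniform in HCT116. Library A held 64.0% of its leftmost window and fell to 31.4% at 127.30 to 127.35 Mb. It rose again to 64.6% at 128.05 to 128.10 Mb. Library B took the opposite course, from 23.1% to 50.9% at 127.35 to 127.40 Mb and back to 18.2%. Over the middle 10 windows, from 127.25 to 127.75 Mb, library A held 38.2% and library B 46.6% in HCT116, against 54.0% and 29.6% over the 16 windows on both sides of them. Library C differed little, with 15.2% in the middle and 16.4% on the sides. FAM84B lies in the middle part.

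The leading axis did not show this shape. It was -0.93 in the middle windows and -1.01 and -0.97 in those to the left and right. RPE1 had 64.5% and 58.3% of library C in the middle windows and 53.9% and 45.3% on the sides. Its library A share was 18.9% and 16.3% in the middle and 17.2% and 17.2% on the sides. These shares were near the low end for RPE1, where the 5th percentile over autosomal windows was 12.7% and 12.3%. A dip in library A as deep as that of HCT116 thus had no room to appear in RPE1, and its absence there is not a contrast between the lines.

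The windows with the most library A in HCT116 were not those with the most in RPE1. The highest HCT116 share of the locus was 65.1%, at 126.65 to 126.70 Mb, and the 8 highest lay from 126.55 to 126.70 Mb, from 126.80 to 126.90 Mb, from 128.00 to 128.10 Mb and at 128.35 to 128.40 Mb. In RPE1, 5 of these 8 windows were led by library B in at least 1 set. The highest RPE1 shares, 68.0% and 70.9%, were both in the window at 128.70 to 128.75 Mb, which holds the MYC start and the DNA upstream of it. HCT116 had 54.0% there. In HCT116, windows led by library A in RPE1 set 1 (19 windows) had a mean library A share of 53.5%, those led by library C there (23 windows) had 46.4%, and those led by library B (30 windows) had 43.3%. By the lead in RPE1 set 2 the means were 53.1% (library A, 21 windows), 44.1% (library C, 20 windows) and 44.7% (library B, 31 windows), so the order of the latter 2 classes turned with the RPE1 set.

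Over the 72 windows the axis values of the RPE1 sets correlated at r = 0.99, and those of HCT116 with the RPE1 sets at r = 0.09 and r = 0.10. Without the stretch, over 46 windows, HCT116 correlated with them at r = 0.66 and r = 0.66, against r = 0.78 and r = 0.79 over all 53706 autosomal windows. These values are descriptions, since neighbouring windows are not independent and the stretch was chosen for its difference. The SD of the axis over the locus was 0.99 and 0.95 in RPE1 against 0.49 in HCT116.

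Among the 328 runs of at least 5 windows called below, which were all chosen by the same contrast, the stretch was the 4th longest and had the 2nd largest difference. The median difference of the 328 was -1.46. By the HCT116 axis alone the stretch stood at position 35. The autosomal runs nearest to it in length were chr17:9350001-10500000 and chr7:143400001-144550000, each of 23 windows.

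In the chromosome 17 run, RPE1 had 53.6% and 50.3% of library C, much like the stretch upstream of MYC, but library B led 22 of the 23 windows in HCT116. Library A held 36.4% of its middle windows and 36.0% of its sides. In the chromosome 7 run, library A held 42.7% in HCT116, and the shape was the inverse of that upstream of MYC, with 50.5% of library A in the middle and 35.2% on the sides. The stretch upstream of MYC had the largest excess of library A on its sides over its middle of all 328 runs, 15.8 percentage points against a median of 1.16. This measure was chosen after the shape had been seen, and it has no test.

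**Figure D4:**
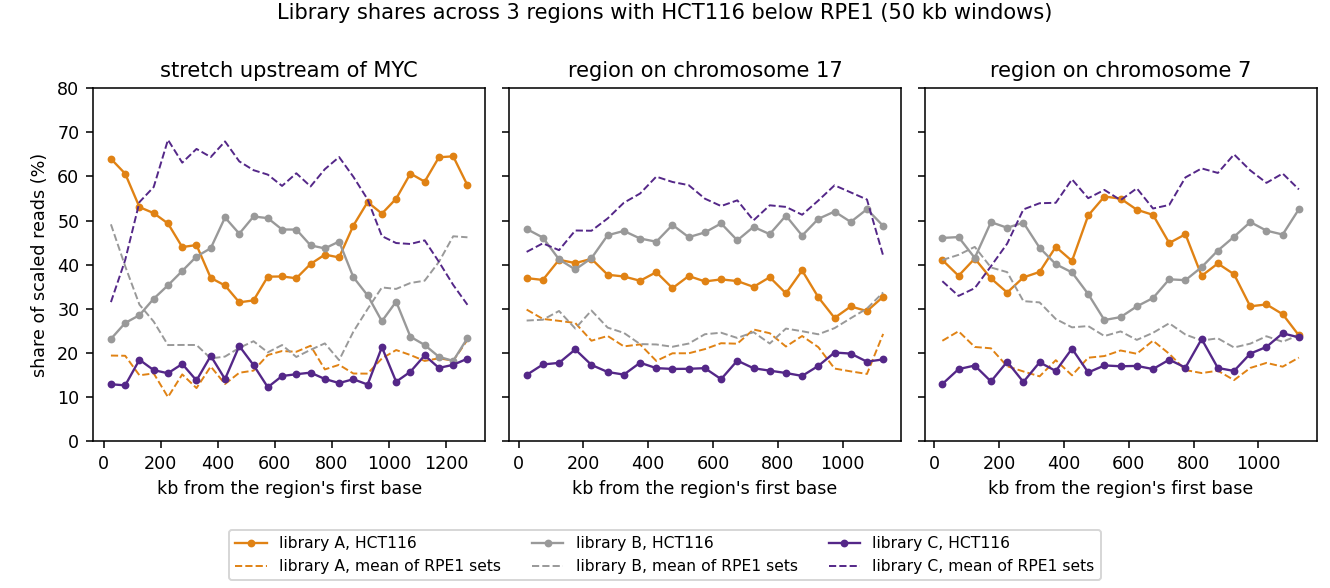
Shares of libraries A, B and C (percent) in HCT116 (points and solid lines) and the mean of the RPE1 sets (dashed lines) in each 50 kb window of the stretch upstream of MYC and of the runs on chromosomes 17 and 7, against the distance from the start of the run in kb. Library A in HCT116 dips in the middle upstream of MYC, is nearly level on chromosome 17 and peaks in the middle on chromosome 7.

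Summed reads of the 3 libraries were not used by the rule, and they give the relative depth of the locus. Set against the autosomal median, the locus stood at 0.85 and 0.99 in RPE1 but at 1.24 in HCT116, which was 1.35 times the RPE1 mean. The stretch stood at 1.25 times, MYC to PVT1 at 1.32 times and the 400 windows within 10 Mb on each side of the locus at 1.51 times. The RPE1 sets differed from each other by 0.13 over the locus, and HCT116 lay above both. The windows around MYC stood at 1.07, 1.07 and 1.57, which made HCT116 1.46 times the RPE1 mean there. Relative depth at MYC and PVT1 was thus raised in HCT116, as it was in the flanking windows.

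Depth was also set against autosomal windows of like axis value in the same set. The ratio of HCT116 to the RPE1 mean was then 1.37 over the locus, 1.31 in the stretch, 1.41 from MYC to PVT1, 1.56 in the windows around MYC and 1.46 in the flanks. Along the locus 17 of 72 windows lay under 1.22, the 2.5th percentile of the flanking windows, and 1 lay over 1.82, their 97.5th percentile. The low windows included a run of 9 from 128.05 to 128.50 Mb, across POU5F1B, with ratios of 1.04 to 1.21, and a run of 3 inside PVT1.

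The lowest ratio was 0.97, at 128.95 to 129.00 Mb inside PVT1, where HCT116 had 436 reads [396 to 479, exact Poisson interval] and 0 of the 400 flanking windows went as low. The RPE1 sets gave 1.12 and 0.86 there, so their spread is part of this value. The highest ratio was 1.94, in the window at the PVT1 end, with 2.00 and 1.89 from the RPE1 sets and 668 reads in HCT116, and 4 of the 400 flanking windows were as high, up to 2.06. These windows were picked as extremes of 72, and what sets their depth was not tested.

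**Figure D5:**
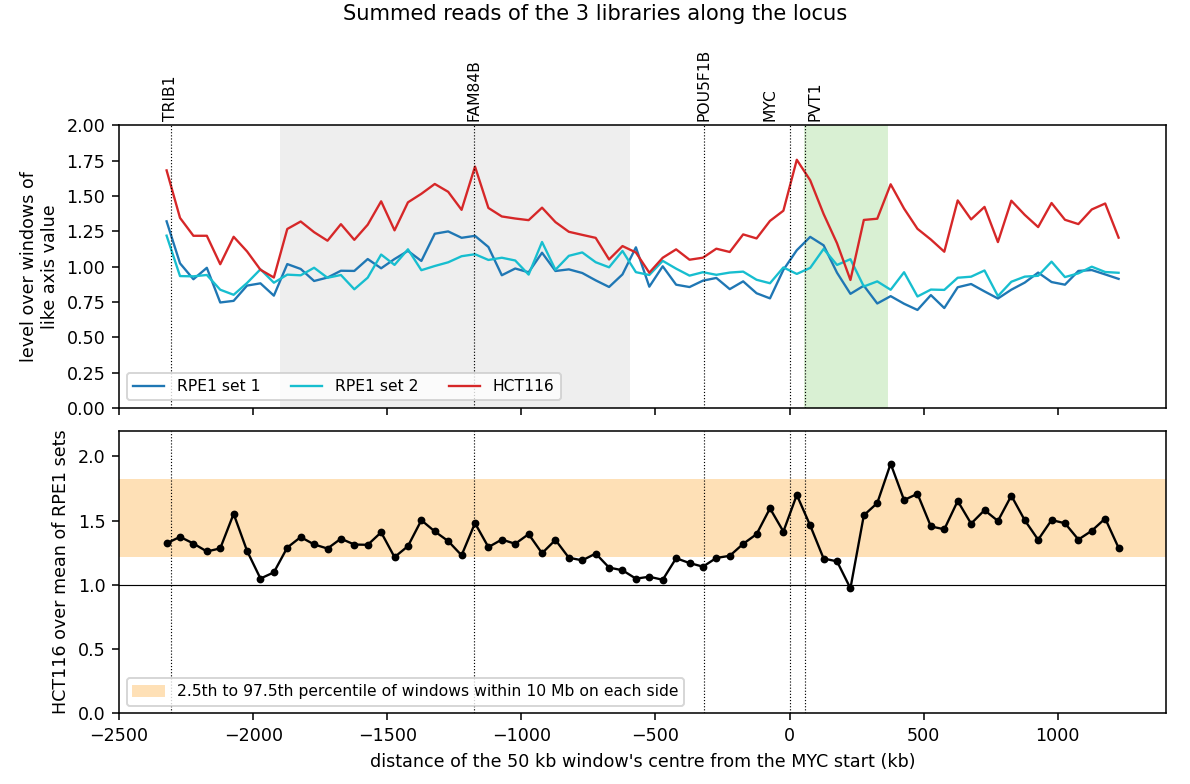
Summed scaled reads of each 50 kb window over the median of autosomal windows of like axis value in the 3 sets (top) and the ratio of HCT116 to the mean of the RPE1 sets (bottom), against the distance from the MYC start in kb. The orange band spans the 2.5th to the 97.5th percentile of the flanking windows, 1.22 to 1.82. The ratio falls to 0.97 inside PVT1 and reaches 1.94 at its end.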

How the data were processed

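The authors deposited 1 table per set with whole-number counts of reads in 1 kb bins, 3 columns a set. The labels give single-end reads of 50 bases. The submitters' processing notes name Bowtie2, SAMtools 1.2, bedtools 2.25 and hg19, with no role or order given. Columns carry no fraction name, so libraries are called by position. In the labels HCT116 mid and late S carry replicate number 2 and early S carries none, and the 3 libraries were taken as 1 set.

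Counts were summed to windows of 50 kb and 20 kb. A window was kept with at least 25 filled bins, 50 reads over both RPE1 sets and 30 reads in each set (per 50 kb). The libraries of a set were scaled to their mean total over kept windows. The leading axis is the first principal component of centred log2(scaled count + 1), fitted on autosomes in each set. For genes given by 1 position, 10 kb on each side was taken. No statistical test was made between the lines, since HCT116 has 1 set. The shared steps of filtering, scaling and axis, with the same call rule, were checked on simulated counts with a planted shift. Those counts took the shares of RPE1 set 2 for every set and held counting error alone, with no difference in shares between the RPE1 sets. Alternatives changed the window size, the axis, the filter, the depth, the pseudocount, the thresholds, bins with extreme counts, the depth reference and the RPE1 sets used. Genes named are the 5 of the locus, and regions compared are the autosomal runs nearest in length. Genes with like profiles elsewhere were not analysed here. The members, lists and measures were chosen with earlier results of these data known. Python 3.11.15, NumPy 2.4.6, pandas 2.3.3, SciPy 1.17.1 and matplotlib 3.10.9 were used.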

Additional observations from a re-analysis of the deposited data

Results flagged for a closer look

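The log2 ratio of library C to library A was above 0 in both RPE1 sets and below 0 in HCT116 at FAM84B, at POU5F1B and over the stretch from 126.85 to 128.15 Mb. At FAM84B it was 1.38 and 1.46 in RPE1 but -1.37 in HCT116, a difference of -2.79 from the RPE1 mean. At POU5F1B it was 0.35 and 0.55 against -1.80, a difference of -2.25. Over the stretch it was 1.70 and 1.58 against -1.58, a difference of -3.22. The difference between the lines was not tested, since HCT116 has 1 set. The interval, which holds POU5F1B, and the stretch, which holds FAM84B, were chosen on library shares and this difference. The ratio restates the same contrast, so none of these values is separate support for it.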

How the results depend on the processing

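Over 145 recomputed values, 124 moved by no more than a set limit, 21 moved by more and 0 changed direction. Edge positions, depth ratios and percents of windows cannot be negative, so they could not change direction. Only the axis differences, the correlation, the library B difference and the dip in library A could. The limit was the spread between the RPE1 sets or, for a count or percent of windows, a factor of 1.5. Leaving out 1 of the 2 RPE1 sets moves their mean by less than their SD. For the edges, the correlation and the library B difference those values thus had to fall within the limit, and for the depth ratios nearly so. For the axis differences that spread was an SD of single windows pooled over the locus, 0.12. The mean axis over the stretch had a smaller SD of 0.016 between the RPE1 sets, so values counted as within the limit can exceed it. The difference over the stretch lay between -1.95 and -1.86 under every alternative run for it. Of the locus windows, 2.78% were above both RPE1 sets at a threshold of 0.5 SD, against 0 at 1 SD. The share over all kept windows was taken at 1 SD only, so the percent at 0.5 SD has no background beside it and is not read as a result. The correlation of HCT116 with RPE1, 0.093 as a mean, was 0.081 on 20 kb windows, 0.144 with the log2 ratio of library C to A and 0.063 with ranks. The left RPE1 edge, at 126.820 Mb as a mean, lay at 126.812 Mb with that ratio, 126.827 Mb with ranks, 126.840 Mb at the midpoint of the stretch and flank means and 126.814 Mb on 50 kb windows. The right edge, at 128.181 Mb, lay at 128.168 Mb with ranks and 128.153 Mb at the midpoint. Against windows of like axis value the depth ratio was 1.31 in the stretch and 1.41 from MYC to PVT1. The gene values that moved are given with the genes, except FAM84B (-1.70 with the ratio and -1.37 with ranks), POU5F1B (-1.50 and -1.09) and MYC with ranks (0.61). The cause of these moves was not tested.

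Without RPE1 replicate 1 or 2 the library B difference over the stretch was 3.92 or 13.3 percentage points, so its size depends on the RPE1 set. The 50 kb edges and the alternatives for the dip in library A were chosen after seeing the data, and the dip came to between 15.7 and 15.9 points in them. The edges already use 20 kb windows, so that alternative was not run for them. Depth limits single 20 kb windows most. No paired analysis was possible because HCT116 has 1 set and no result comes from a test.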
